A study of Arabidopsis thaliana with 4 samples.

Results

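COR15A, COR47 and LTI30 encode proteins that plants build up in the cold and when they lose water. They were taken by name, as 3 of the 13286 Arabidopsis thaliana loci that had a probe set assigned to a single gene. Each of the 3 had 1 such probe set, on chromosomes 2, 1 and 3 in that order, and all 3 passed the signal filter. They were followed in inflorescence tips of tmm-1, which is mutated in TMM, a gene that sets the spacing of stomata. The control was Col-3 gl1, in which the gl1 mutation strips rosette leaves of hairs. COR27, a cold-regulated gene with lower signal in tmm-1, was set beside them.

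The 4 Affymetrix ATH1 arrays comprised 2 of tmm-1 and 2 of Col-3 gl1, each hybridised with RNA from a pool of tips. Chambers held both lines at 22 °C and 70% humidity, lit for 16 h a day (125 µmol per square metre per second), and tips were harvested at developmental stage 6.10. No cold or drought treatment is given for either line, so the levels are those of plants grown in the warm. The pool number served as the replicate number. The labels do not say that different plants went into each pool, so the spread between arrays may be technical, nor whether the tmm-1 line also carries gl1. In pooled tissue, fewer cells of a type and less RNA per cell cannot be told apart.

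In many plants, cold leads within hours to the transcription of a common set of protective genes. CBF transcription factors drive it by binding a short element in the promoters of their targets, and drought acts on many of the same genes through abscisic acid. COR15A, the product of a nuclear gene, is imported into the chloroplast stroma, where it folds on drying and helps to keep membranes intact during freezing. COR47 and LTI30 belong to the dehydrins, disordered hydrophilic proteins with a repeated lysine-rich segment, and LTI30 is known to bind membranes. COR27 has a different role, since it acts with the circadian clock and lowers freezing tolerance.

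The arrays had median signals of 41.4 and 45.4 in tmm-1, against 40.8 and 40.7 in Col-3 gl1. On tmm-1 replicate 2 the weakest probe sets read higher than elsewhere, with a 10th percentile of 3.07, against 1.54 to 1.61 on the other arrays. Background was judged by the brightest Bacillus control probe set, at 21.2. Of 14 markers of floral and inflorescence meristem, UFO and CLV3 had a named probe set, at 1.12 to 4.35 in tmm-1 and 0.868 to 3.08 in Col-3 gl1, so neither stood above background and the tissue label could not be checked with them. Of 6 late pollen markers, 3 were listed, at 0.609 to 4.97 in tmm-1 and 0.447 to 3.49 in the control. None of the 6 root markers had a named probe set. TMM itself is not analysed here.

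COR15A (AT2G42540) gave the highest tmm-1 to control ratio of the 3 genes, but it did not pass the test over all probe sets. Its signal was 112 and 76.5 on tmm-1 replicates 1 and 2, against 42.9 and 55.2 on Col-3 gl1 replicates 1 and 2. Both tmm-1 arrays lay above both control arrays, and the higher of the tmm-1 arrays was replicate 1. Means were 94.0 ± 24.8 in tmm-1 and 49.0 ± 8.69 in the control (SD, n = 2 each), a ratio of 1.92.

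Signals were tested as log2(signal + 10), a scale that understates the change of dim genes. On it the change of COR15A was 0.80 ± 0.21 (SE), with a 95% interval of 0.38 to 1.23. Limma gave an adjusted p of 0.0796 over the 16960 probe sets tested, where an adjusted p below 0.05 counted as called. COR15A ranked 139th by p, and 104 probe sets were called, or 0.613%. A rise at least this large was seen in 1.44% of the probe sets tested. The 2 tmm-1 arrays differed from each other by 0.49 on the log2 scale and the Col-3 gl1 arrays by 0.30, both less than the difference between the lines but more than the median gaps of 0.22 and 0.19 over all probe sets. The size of the change depended on which arrays entered the fit. COR15A was at 1.05 without tmm-1 replicate 2 and at 0.95 without Col-3 gl1 replicate 2. It was at 0.56 without tmm-1 replicate 1 and at 0.65 without Col-3 gl1 replicate 1. Leaving out an array gives its line a lone array with no spread of its own, so calls from those fits are not read. With every array kept, the adjusted p of COR15A in limma ran from 0.0393 (pool number as a block) to 0.534 (no intensity trend).

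COR47 (AT1G20440) was close to level between the lines. It had 364 and 350.3 on the tmm-1 arrays, against 313 and 347.7 on the Col-3 gl1 arrays. The lines did not overlap, but tmm-1 replicate 2 exceeded Col-3 gl1 replicate 2 by a small margin. Means were 357 ± 9.67 in tmm-1 and 330.2 ± 24.8 in the control (SD, n = 2 each), and the log2 change was 0.11 ± 0.15 (SE, limma, adjusted p = 0.893). The 95% interval, from -0.19 to 0.42, took in both a small fall and a rise of up to that size. The change was 0.03 with each array scaled to the common median.

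LTI30 (AT3G50970) overlapped between the lines. Its signals were 155 and 120.2 on the tmm-1 arrays, against 131 and 116 on the Col-3 gl1 arrays. In both lines replicate 1 was the brighter array. Means were 137 ± 24.5 in tmm-1 and 123 ± 10.6 in the control (SD, n = 2 each), with a log2 change of 0.14 ± 0.18 (SE, limma, adjusted p = 0.883) and a 95% interval of -0.22 to 0.50. Without tmm-1 replicate 1 the sign turned, to -0.031.

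Over all probe sets tested, the median log2 change was 0.03, with 5th and 95th percentiles of -0.42 and 0.52. COR47 and LTI30 lay between these percentiles, while COR15A lay above them. Signals of the lines did not overlap in 38.3% of the probe sets tested, with tmm-1 above Col-3 gl1 in 21.5% and below it in 16.8%. COR15A and COR47 had tmm-1 above, and LTI30 overlapped.

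**Figure D1:**
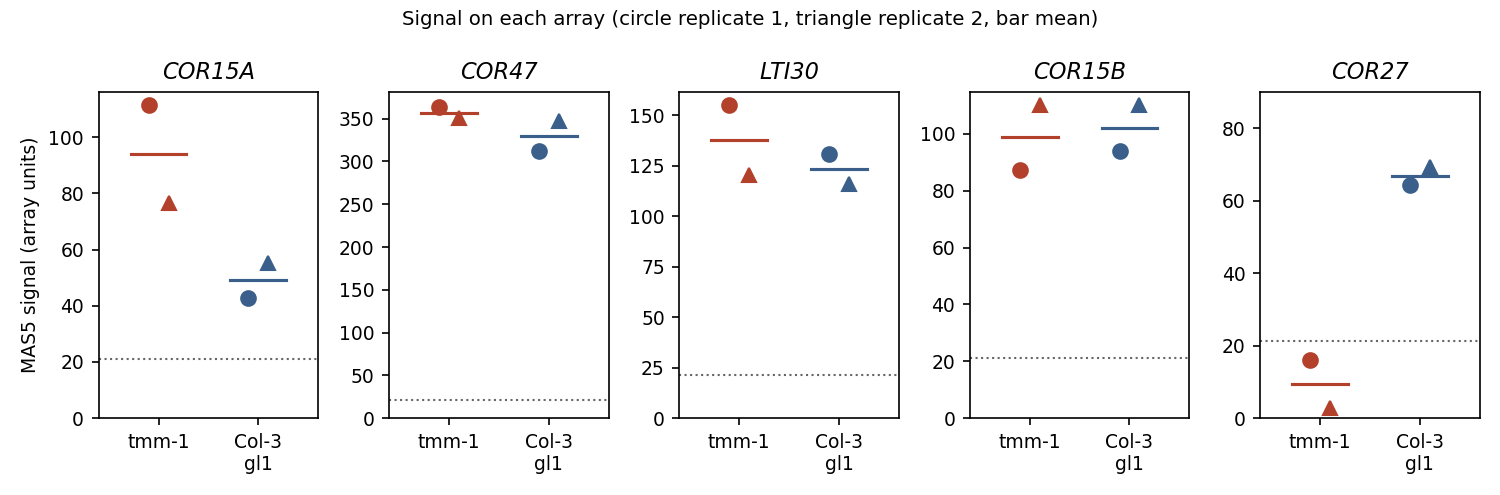
MAS5 signal in array units on each array for COR15A, COR47, LTI30, COR15B and COR27, with tmm-1 left of Col-3 gl1; circles are replicate 1, triangles replicate 2, bars the mean of 2 arrays and the dotted line the highest Bacillus control signal of 21.2. Both tmm-1 arrays lie above the Col-3 gl1 arrays for COR15A and below them for COR27, and the lines overlap for LTI30 and COR15B.

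**Figure D2:**
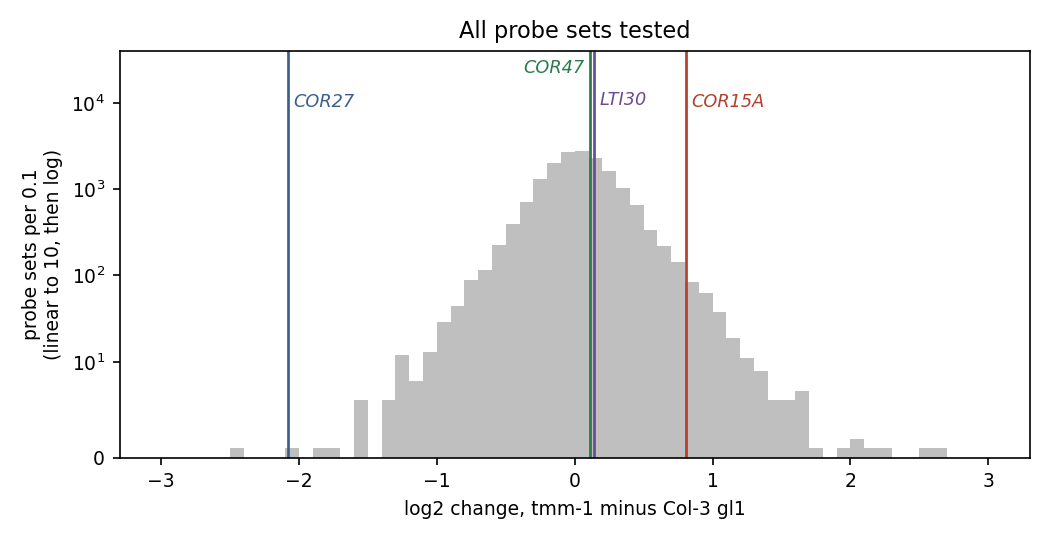
Number of probe sets in each 0.1 step of log2 change, tmm-1 minus Col-3 gl1, for the 16960 tested, on a vertical axis that is linear up to 10 and logarithmic above. Lines mark COR47 at 0.11 and LTI30 at 0.14 near the centre, COR15A at 0.80 in the right tail and COR27 at -2.08 in the far left tail.

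COR27 (AT5G42900), taken for its opposite change, had lower signal in tmm-1 and was called. That call is no support, since COR27 was chosen with its fall known. It also passed the filter only through its Col-3 gl1 signals. Its signal was 16.0 and 2.69 on the tmm-1 arrays, against 64.3 and 69.4 on the Col-3 gl1 arrays. Both tmm-1 values were under the background yardstick of 21.2, and the lower of them came from tmm-1 replicate 2, whose weakest probe sets otherwise read high. The geometric mean of its Col-3 gl1 signals, 66.8, was 3.16-fold that yardstick, a point value without an error. The log2 change was -2.08 ± 0.31 (SE, limma, adjusted p = 3.8e-04), a value that depended on the pseudocount, at -3.10 with 1 and -1.60 with 20. COR27 was not called without a signal filter (limma, adjusted p = 0.232) or without an intensity trend (limma, adjusted p = 0.243).

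The 3 protective genes were set against COR27 on the same array, as a description, since COR27 was taken for its opposite change. In tmm-1 its mean of 9.34 lay below the filter and both its signals below background, so it could be tested only through its Col-3 gl1 signals and the size of any ratio to it is loose. Because each probe set responds on its own scale, only the change of such a log2 ratio between the lines was read. For COR15A over COR27 the log2 ratio was 2.22 and 2.77 on the tmm-1 arrays, against -0.49 and -0.28 on the Col-3 gl1 arrays, a shift of 2.88. The shift was 2.19 for COR47 over COR27 and 2.22 for LTI30 over COR27. That the ratios were higher on the tmm-1 arrays follows from the choice of COR27. Most of each shift came from COR27, since its own change was -2.08, and with a pseudocount of 1 the shift of COR15A over COR27 was 4.01.

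COR15A was also set against the other protective genes on the same arrays. The log2 ratio of COR15A to COR47 shifted by 0.69 between the lines, and that of COR15A to LTI30 by 0.66. Neither ratio overlapped between the lines. For these ratios and that of COR15A to COR15B, described next, an exact permutation test (two-sided) gave p = 0.333, the smallest that 2 arrays against 2 allow. That test cannot pass the threshold, so it leaves unsettled whether COR15A and the dehydrins differed in their response.

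COR15B (AT2G42530), the gene next to COR15A on chromosome 2 and a close relative that also encodes a chloroplast stromal protein, was level between the lines. It had 87.3 and 110.3 on the tmm-1 arrays, against 94.0 and 110.3 on the Col-3 gl1 arrays. Replicate 2 was the brighter array in both lines, whereas for COR15A replicate 1 was the brighter in tmm-1. The log2 change was -0.05 ± 0.18 (SE, limma, adjusted p = 0.974; 95% interval -0.42 to 0.33), and it lay between -0.20 and 0.10 with an array left out. The log2 ratio of COR15A to COR15B was 0.32 and -0.48 on the tmm-1 arrays, against -0.98 and -0.88 on the Col-3 gl1 arrays, a shift of 0.85. Leaving out tmm-1 replicate 1 brought the shift to 0.45, and leaving out tmm-1 replicate 2 brought it to 1.25. Cross-hybridisation between the pair was not tested. The neighbours of COR47 and LTI30 that are also dehydrin genes, ERD10 and XERO1, are not analysed here.

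Of 10 listed dehydrin genes, 6 were named on the array and 4 were bright enough to test, at a filter that asked for a mean of at least 10 over the 4 arrays. Limma called 0 of the 4, with 1 at an unadjusted p below 0.05, against 0.613% called and 8.81% at an unadjusted p below 0.05 over all probe sets tested. All 4 had a positive log2 change, with a median of 0.13, against a median of 0.03 and 55.0% positive over all probe sets. The median of the 4 was 0.04 with arrays scaled to the common median, and 3 of the 4 were positive without tmm-1 replicate 1 or without Col-3 gl1 replicate 2. HIRD11 (AT1G54410), a small dehydrin gene, read 2585 and 2420 on the tmm-1 arrays, against 2751 and 1987 on the Col-3 gl1 arrays. Its lines overlapped (log2 change 0.10 ± 0.15, SE), and it was at -0.14 without Col-3 gl1 replicate 2.

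AT4G38410 of the same list had 29.1 and 39.4 on the tmm-1 arrays, against 15.7 and 20.7 on the Col-3 gl1 arrays. Its log2 change was 0.64 ± 0.30 (SE, limma, adjusted p = 0.532). Both control signals were under the background yardstick and both tmm-1 signals above it. The lines did not overlap, as in 38.3% of all probe sets tested. AT2G21490 and AT4G39130 were under the filter. The first had 7.50 and 3.27 on tmm-1 arrays, against 1.44 and 2.24 on Col-3 gl1 arrays, and the second had 4.16 and 19.6 on tmm-1 arrays, against 7.10 and 2.24 on Col-3 gl1 arrays, all below 21.2.

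**Figure D3:**
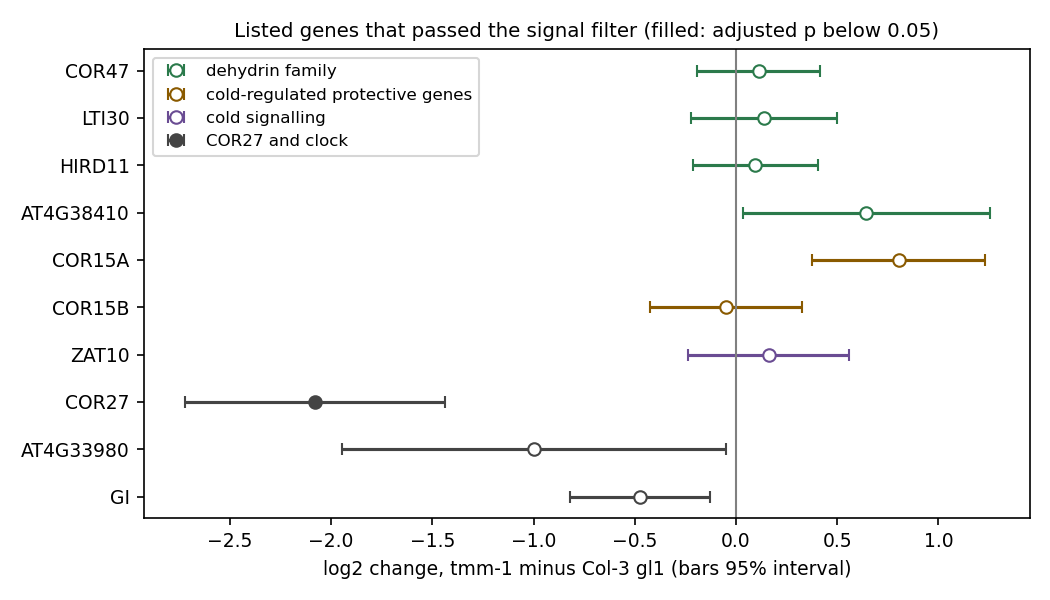
Log2 change, tmm-1 minus Col-3 gl1, with its 95% interval, for the 10 listed genes that passed the signal filter, coloured by list, with a filled point where the adjusted p was below 0.05. COR27 is the filled point, at -2.08, while without a call the intervals of COR15A and AT4G38410 lie above 0 and those of AT4G33980 and GI below 0.

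The wider lists held 102 cold, dehydration, abscisic acid and clock genes, of which 13 were named on the array and 10 could be tested. Of these 10, 1 was called lower, COR27, and 0 were called higher, against 0.371% and 0.242% of all probe sets tested. An unadjusted p below 0.05 was reached by 5, against 8.81% of all probe sets, and these were COR15A, AT4G38410, COR27, AT4G33980 and GI. The members were chosen with earlier results known, so these counts describe the lists and support nothing beyond them. None of the 27 genes of the abscisic acid list had a named probe set. The annotation used left 8794 of the 22810 probe sets unlisted, so a missing name need not mean that the array lacks the gene. In the cold signalling list ZAT10 (AT1G27730), a zinc finger repressor that responds to cold and salt, read 69.3 and 90.2 on tmm-1 arrays, against 73.7 and 65.7 on Col-3 gl1 arrays, so that the lines overlapped (log2 change 0.16 ± 0.19, SE). LEA4-5, a late embryogenesis abundant gene of the dehydration list, was under the filter, at 1.10 and 4.38 on tmm-1 arrays, against 1.48 and 1.33 on Col-3 gl1 arrays.

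In the clock list all 3 tested genes, COR27 among them, had lower signal on both tmm-1 arrays, as in 16.8% of all probe sets tested. COR27 and AT4G33980 passed the filter only through their Col-3 gl1 signals, so the count is no support for a change of the list. GI (AT1G22770), which links the clock to flowering, had 100.1 and 109.8 on the tmm-1 arrays, against 152 and 147 on the Col-3 gl1 arrays, a log2 change of -0.47 ± 0.17 (SE, limma, adjusted p = 0.325). AT4G33980 read 4.36 and 4.20 on tmm-1 arrays, against 15.2 and 22.1 on Col-3 gl1 arrays, with a log2 change of -0.996 ± 0.461 (SE, limma, adjusted p = 0.537). Of its 4 signals, only that of Col-3 gl1 replicate 2 stood above 21.2, so this change has no firm size. It ran from -1.88 to -0.67 over 13 settings. In neither gene did the lines overlap. The time of day at which tips were taken is not given in the sources used here, and its part in these values was not tested.

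Genes with array profiles most like each protective gene were found by the Euclidean distance between log2(signal + 10) values over the 4 arrays, each centred on its own mean, among 9419 other loci. Nearest to COR15A were AT2G23530, AT5G57910 and AT5G37530, at distances of 0.21, 0.21 and 0.23. AT2G23530 and AT5G57910 each had a log2 change of 0.61 (limma, adjusted p = 0.522 and 0.521). Their signals on Col-3 gl1 replicate 1 were under the background yardstick. AT5G37530 read 78.0 and 68.5 on tmm-1 arrays, against 32.1 and 42.2 on Col-3 gl1 arrays. Its log2 change was 0.83 ± 0.21 (SE, limma, adjusted p = 0.0792), so it was not called either. Nearest to COR47 were atpE, AT2G01250 and AT3G02750, at 0.02 to 0.03, and nearest to LTI30 were AT3G03100, CXE16 and AT2G04650, at 0.01 to 0.04. This is a description over 4 arrays and carries no test.

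**Figure D4:**
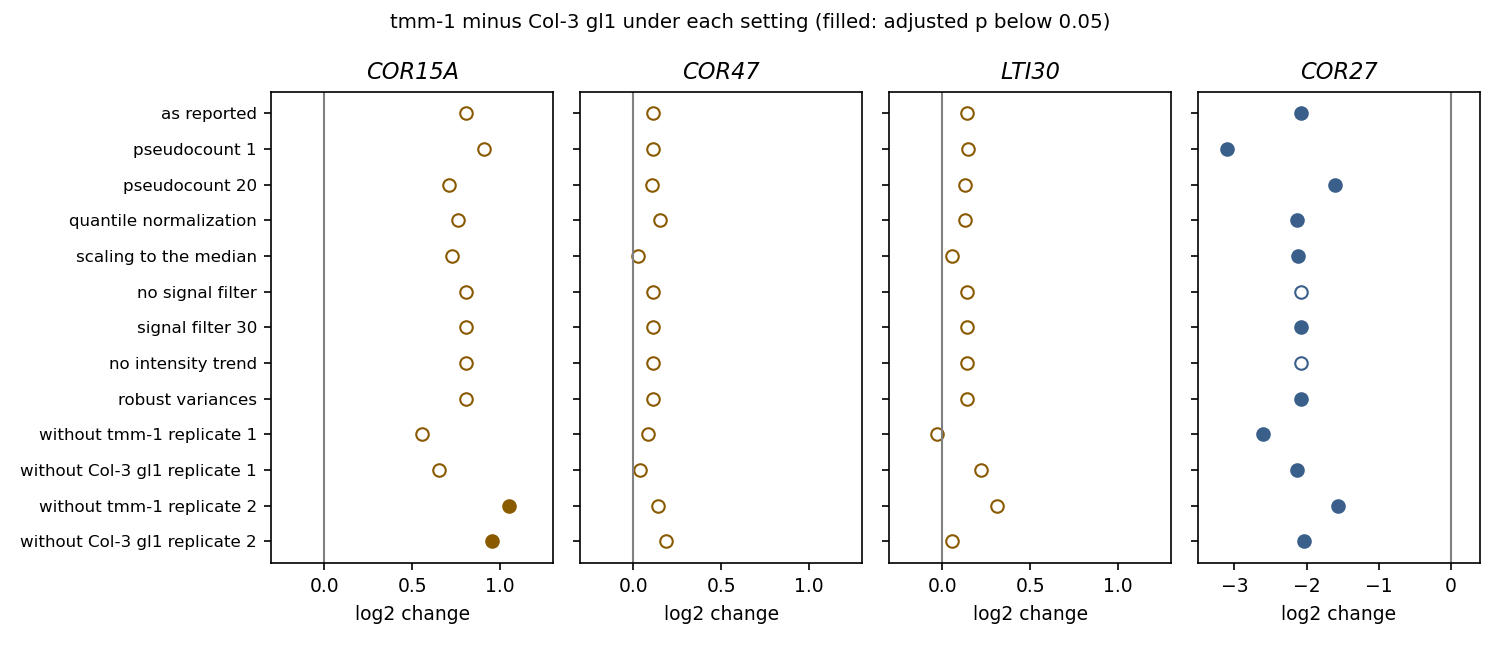
Log2 change, tmm-1 minus Col-3 gl1, of COR15A, COR47, LTI30 and COR27 as reported and under 12 other settings (the fit with the pool number as a block is not drawn), with a filled point where the adjusted p was below 0.05. COR15A ranges from 0.56 to 1.05 and COR27 from -3.10 to -1.56, while LTI30 crosses 0 without tmm-1 replicate 1; the horizontal scale of the COR27 panel differs from the others. Where an array is left out, the lone array of its line has no spread of its own, so the filling of those points is not read.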

How the data were processed

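The deposited values were MAS5 intensity signals on a linear scale, made with MAS5 and GCOS per the submitters' processing notes. Their 2% trimmed mean was 100 on every array, so no further scaling was done. Such scaling removes overall differences in RNA content. Detection calls were not used here.

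Of 22810 probe sets, 64 array controls were left out. Probe sets with a mean signal of at least 10 were tested (16960) as log2(signal + 10) with limma 3.58.1 in R 4.3.3, two-sided, with an intensity trend and Benjamini-Hochberg adjustment over all of them. With 23.6 prior degrees of freedom, the p-values rest mostly on the trend over all probe sets. The script was tested on simulated data. The number of arrays limits the precision.

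Names came from the platform annotation, joined by Entrez ID to RefSeq TAIR10.1. A single symbol was given for 13513 probe sets (13436 matched a locus) and several for 503, while 8794 were not listed. A locus with several probe sets was taken at the brightest.

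The genes and lists were chosen with earlier results of these data known. Named were the 3 protective genes, COR27, listed genes that passed the filter, and the 3 nearest profiles to each. Genes under the filter, LEA26 and LEA27, and the ratios of COR15A to COR15B, COR47 and LTI30 were added after their values were seen. Words in the gene annotation (dehydrin, late embryogenesis abundant and the like) gave a further list. Ratios within arrays were tested with an exact permutation test. Alternatives were other pseudocounts, filters, scalings and variance models, each array left out, and the pool number as a block.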

Additional observations from a re-analysis of the deposited data

How the results depend on the processing

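The number of probe sets called, 104 (41 higher, 63 lower), was 69 after quantile normalization and 17 without a signal filter. Limma called 0 without an intensity trend, where 1293 had an unadjusted p below 0.05. With arrays scaled to the common median, 31 were higher and 80 lower. Leaving out an array gave 80 to 572, the highest without tmm-1 replicate 1, and the lone array was then assumed to vary like the other line.

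COR15A ranged from 0.56 to 1.05 with an array left out, LTI30 from -0.031 (without tmm-1 replicate 1) to 0.31, COR47 from 0.04 to 0.19 and COR27 from -2.60 to -1.56. COR27 kept its change of -2.08 but lost its call without a filter (limma, adjusted p = 0.232) and without the trend (limma, adjusted p = 0.243). The listed genes called, 1 in the reported model, were 0 in those 2 settings. The cause was not tested.

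Fitting the pool number as a replicate block gave 191 called probe sets in limma and 2 listed genes, COR27 and COR15A (log2 change 0.80, adjusted p = 0.0393). Same-numbered arrays deviated together with a correlation of 0.03 across probe sets, and the labels do not say that the number marks a shared batch. COR47 and LTI30 were called in 0 of the 14 settings, and no ratio to COR27 turned sign. Depth is not defined for arrays, and signals under about 21.2 (COR27 in tmm-1, AT4G38410 in the control) have no firm size.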

Other observations

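Among 52 loci whose annotation names a dehydrin, a late embryogenesis abundant protein or a cold or dehydration response, 12 were named on the array and 8 were bright enough to test. Limma called 1 of them, COR27, lower in tmm-1, against 0.371% of all probe sets called lower. The words were chosen with COR27 and its result already known, so the count supports nothing. LEA27 (AT2G46140), of the late embryogenesis abundant group, had 164 and 153 on the tmm-1 arrays, against 127 and 118 on the Col-3 gl1 arrays. It was added, like LEA26, after its values were seen. The lines did not overlap, as in 38.3% of all probe sets tested, and the replicates of each line lay close together. The log2 change was 0.35 ± 0.17 (SE, limma, adjusted p = 0.551). The change stayed between 0.26 and 0.39 over 14 settings, with 0 of them calling it. LEA26 (AT2G44060) was level, at 861 and 852 on tmm-1 arrays, against 854 and 844 on Col-3 gl1 arrays. LEA18 and LEA4-1 were under the filter on all arrays, at 0.366 to 2.45 in tmm-1 and 0.502 to 0.684 in the control.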
